A study of Homo sapiens with 4 samples.

Results

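The genes described here encode the enzymes that build the pyrimidine nucleotides UMP and CTP from small precursors, together with enzymes that salvage or break down pyrimidines. They are CAD, DHODH and UMPS for UMP synthesis, CTPS1 and CTPS2 for CTP synthesis, UPP1, UPRT and TYMP for salvage, and DPYD and DPYS for breakdown. The members were chosen by current or former gene symbol, and each has 1 probe on the array. All 10 were found among the 17559 gene symbols of the array, CTPS1 under its former symbol CTPS. All 10 were above the blank-spot limit on all 4 arrays, so none was lost to the filter that left 16592 genes for testing.

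RNA came from Panc1, an established line of human pancreatic carcinoma cells, and from 3 clones of it, GR1, GR3 and GR4, that resist gemcitabine, a deoxycytidine analogue. The clones were picked by limiting dilution from 1 population that had been adapted to gemcitabine, from 2 ng/ml at first to 30 ng/ml at the end, over 2 months. The parental cells had no gemcitabine. Each clone and the parental line has 1 array, all cells grew in medium with 10% serum, and whether drug was present when RNA was taken is not given in the sources used here. The treatment label has GR2 where the titles have GR4, and the titles were followed. The clones share their origin and the parental line has no spread of its own, so every p-value here rests on how these 3 clones vary.

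Cells make UMP in steps. CAD carries the first steps on a single polypeptide, from glutamine, bicarbonate and aspartate to dihydroorotate, DHODH oxidises that to orotate at the inner mitochondrial membrane, and UMPS joins orotate to phosphoribosyl pyrophosphate and decarboxylates the product. CTP synthase then aminates UTP to CTP, with glutamine as the nitrogen donor. Salvage and breakdown run beside this route: uridine and thymidine phosphorylases split nucleosides into base and sugar phosphate, and dihydropyrimidine dehydrogenase and dihydropyrimidinase degrade the free bases. Phosphorylated gemcitabine competes with dCTP, which cells make from the CDP of this route.

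CAD, DHODH, UMPS and CTPS1, and the salvage gene UPP1, were each at least 2-fold above the parental array in all 3 clones, which is 5 of 10 genes where 3.66% of all tested genes met the same rule. By limma, UMPS and UPP1 rose over all tested probes, 2 of 10 genes where 2.17% of all genes rose. The smallest limma adjusted p of all tested genes was 0.0442, so every call lay between that value and 0.05. No member fell by this test (0 of 10, against 1.89% of all genes), and 1, TYMP, was lower at an unadjusted p under 0.05, where 15.1% of all genes were. At that unadjusted level 6 members were higher, where 16.8% of all genes were. In all 3 clones 7 members were higher than in the parental line (35.3% of all genes) and 2 lower (37.8% of all genes), and 0 were at least 2-fold lower in all 3 (3.60% of all genes). The 7 include DPYS, a dim spot for which no direction is given below. The median log2 difference of the 10 genes was 0.98, beside −0.015 over all tested genes.

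**Figure D1:**
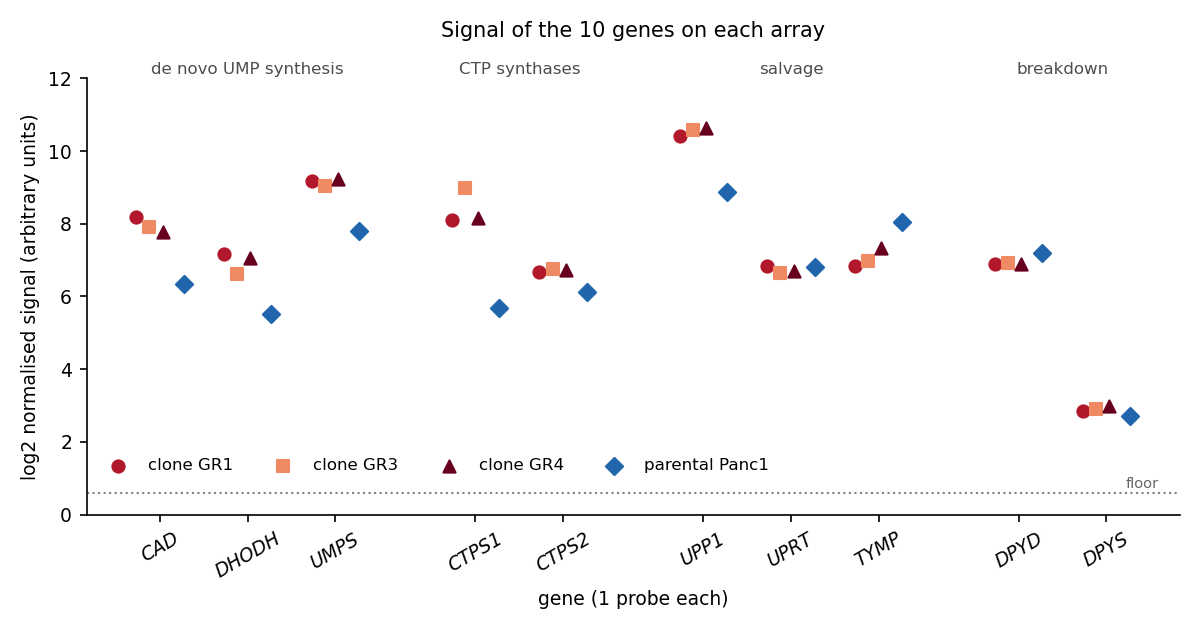
Log2 normalised signal (vertical axis, arbitrary units) of the 10 genes on the arrays of clones GR1, GR3 and GR4 and of parental Panc1, 1 point per array, with the genes grouped by role; the dotted line is the floor of 0.61. For CAD, DHODH, UMPS, CTPS1, CTPS2, UPP1 and DPYS the 3 clone points lie above the parental one, and for TYMP and DPYD below it.

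The sequence just before the start of the genes that differed most is shown here as the regulatory DNA next to the measured transcripts. Each line holds the 250 bases before the first start site that RefSeq lists for the gene (GRCh38.p14, 5′ to 3′ on the gene's strand), with capitals for GC boxes (GGGCGG, either strand) and for the E-box CACGTG, the site that MYC and MAX bind.
CAD (chr2:27217119-27217368, plus strand): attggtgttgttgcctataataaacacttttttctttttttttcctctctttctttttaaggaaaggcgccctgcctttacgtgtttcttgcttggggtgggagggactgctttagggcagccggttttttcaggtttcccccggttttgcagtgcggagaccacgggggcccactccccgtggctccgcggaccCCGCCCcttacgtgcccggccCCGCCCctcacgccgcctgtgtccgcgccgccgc
DHODH (chr16:72008494-72008743, plus strand): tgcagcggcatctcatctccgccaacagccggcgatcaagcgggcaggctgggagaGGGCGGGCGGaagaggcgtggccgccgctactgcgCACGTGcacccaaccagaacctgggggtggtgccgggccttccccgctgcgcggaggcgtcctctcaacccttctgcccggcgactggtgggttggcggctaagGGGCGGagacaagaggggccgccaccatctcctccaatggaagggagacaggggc
UMPS (chr3:124730202-124730451, plus strand): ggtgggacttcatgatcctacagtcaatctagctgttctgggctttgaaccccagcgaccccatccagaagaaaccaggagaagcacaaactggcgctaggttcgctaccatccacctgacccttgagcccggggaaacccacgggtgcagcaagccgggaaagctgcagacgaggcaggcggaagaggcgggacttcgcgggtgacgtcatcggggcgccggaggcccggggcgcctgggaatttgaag
CTPS1 (chr1:40979446-40979695, plus strand): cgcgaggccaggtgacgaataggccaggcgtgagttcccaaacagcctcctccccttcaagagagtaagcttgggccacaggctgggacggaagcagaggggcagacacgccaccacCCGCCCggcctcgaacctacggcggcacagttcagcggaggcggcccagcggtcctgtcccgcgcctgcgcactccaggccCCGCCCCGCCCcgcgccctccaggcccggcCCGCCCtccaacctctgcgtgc
UPP1 (chr7:48089004-48089253, plus strand): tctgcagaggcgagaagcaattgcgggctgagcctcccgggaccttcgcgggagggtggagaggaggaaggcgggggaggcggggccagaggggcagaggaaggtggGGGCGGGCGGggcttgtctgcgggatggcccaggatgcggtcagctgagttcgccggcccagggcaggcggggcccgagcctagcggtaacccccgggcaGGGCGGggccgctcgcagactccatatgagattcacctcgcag
TYMP (chr22:50530086-50530335, minus strand): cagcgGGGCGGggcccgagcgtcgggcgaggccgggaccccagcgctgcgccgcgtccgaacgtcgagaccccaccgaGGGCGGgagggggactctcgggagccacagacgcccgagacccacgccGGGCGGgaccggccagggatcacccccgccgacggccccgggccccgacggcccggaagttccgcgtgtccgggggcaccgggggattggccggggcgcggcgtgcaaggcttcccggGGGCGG

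Of the 10 members 9 were matched in this table, with 16 start sites. The E-box was found in 1 of these 16 windows, the one of DHODH, where its last base lies 153 bases from the start, and 6.34% of the 35116 windows of all genes hold it. The core of the interferon-stimulated response element, the STAT site TTCNNNGAA and the ATF4 element TGATGCAA were in 0 of the 16 windows, against 3.02%, 6.57% and 0.772% of all windows. GC boxes, a motif chosen after the sequences were seen, were in 11 of 16 windows (68.8%), against 42.6% of all, and some of the GC boxes in capitals overlap each other. Start sites 1 and 3 of UPP1 lie close together, as do those of TYMP, DPYD and UPRT, so their windows overlap. The overlapping windows of UPP1, TYMP and DPYD hold the same boxes more than once, and the 16 windows are not separate. The window of UMPS has none. The GC content of the printed windows was 58.8% for CAD, 70% for DHODH, 62% for UMPS, 72% for CTPS1, 71.6% for UPP1 and 80.8% for TYMP, where the median of all windows is 58%. All motifs were searched on both strands, and a match is a string of letters, not a shown binding site. Only the 250 bases before each start site were searched, so sites past the start or further upstream would be missed.

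CAD, the enzyme that starts the pathway and sets its pace, had log2 signals of 8.19, 7.92 and 7.77 in GR1, GR3 and GR4, against 6.35 in parental cells. Before normalisation its spot lay 323, 248 and 221 intensity units above the mean of the blank spots in the clones, against 75.0 units in the parental line. All 3 clones lay above the parental array, by 1.42 in GR4 to 1.84 in GR1 on the log2 scale. The mean difference was 1.61 ± 0.21 (SE of the limma fit, 3 clones against 1 parental array), or 3.05-fold, and it missed the threshold (limma adjusted p = 0.0517). Adjusted over 1 probe per gene in place of all tested probes, the same p became 0.0474, and with the model refitted on 1 probe per gene 0.0449. With the normexp background model on the spot and background columns of the scanner files the difference was 1.44 (limma adjusted p = 0.117). The adjusted p was 0.0709 with no filter on dim probes, and lowest, at 0.0161, among probes above the limit on all 4 arrays. Only 1.49% of tested genes had a larger increase.

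DHODH, the mitochondrial step that feeds electrons to ubiquinone, had log2 signals of 7.18, 6.60 and 7.05 in GR1, GR3 and GR4, against 5.52 in parental cells. GR3 was the lowest of the clones and still lay 1.08 above the parental array. The difference was 1.42 ± 0.28, or 2.68-fold (limma adjusted p = 0.0756). Its size depended on the background correction: with the normexp model on the spot and background columns of the scanner files it was 0.50, and with normexp against the blank mean 0.85.

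UMPS, the bifunctional enzyme that yields UMP, rose 2.54-fold. Clones GR1, GR3 and GR4 had log2 signals of 9.19, 9.05 and 9.22, against 7.81 in parental cells, so the clones lay within 0.18 of each other and far from the parental array. The difference was 1.34 ± 0.13 (limma adjusted p = 0.0444). The call was lost with normexp on both scanner columns (1.21, adjusted p = 0.101), with no normalization between arrays (1.61, adjusted p = 0.0517) and with no filter on dim probes (1.34, adjusted p = 0.0525). It was also lost when any single clone was left out, where 0 of all tested genes passed.

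CTPS1, the CTP synthase that proliferating lymphocytes depend on, had the largest difference of the 10 genes. Its log2 signals were 8.11, 8.98 and 8.15 in GR1, GR3 and GR4, against 5.68 in parental cells. In scanner units above the blank mean this was 305, 519 and 287 in the clones, against 48.7 in the parental line. The difference was 2.74 ± 0.44, or 6.67-fold, and 0.253% of tested genes had a larger one. It did not pass (limma adjusted p = 0.0595). The clones differed among themselves: GR3 stood 0.87 above GR1 and 0.83 above GR4 on the log2 scale, and the SD over the clones, 0.49, was larger than that of 94.6% of tested genes. Among probes above the limit on all 4 arrays CTPS1 passed (adjusted p = 0.0167), and with normexp on both scanner columns its difference was 1.67 (adjusted p = 0.128).

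CTPS2, the second CTP synthase gene, differed less. Its log2 signals were 6.68, 6.76 and 6.74 in GR1, GR3 and GR4, against 6.11 in parental cells, a spread of 0.04 (SD, n = 3) over the clones. The difference was 0.61 ± 0.11, or 1.53-fold (limma adjusted p = 0.0676, 95% confidence interval from 0.30 to 0.93). The difference was 0.37 with normexp on both scanner columns and 0.38 with normexp against the blank mean, where it passed (adjusted p = 0.0261). All 3 clones lay above the parental array for both genes, where 35.3% of all tested genes did so. In each clone CTPS1 was further above the parental array (2.43, 3.31 and 2.47) than CTPS2 (0.57, 0.65 and 0.63). The gap between both genes was not tested, since every difference uses the same parental array, and hybridization of either transcript to the other gene's probe was not tested.

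**Figure D2:**
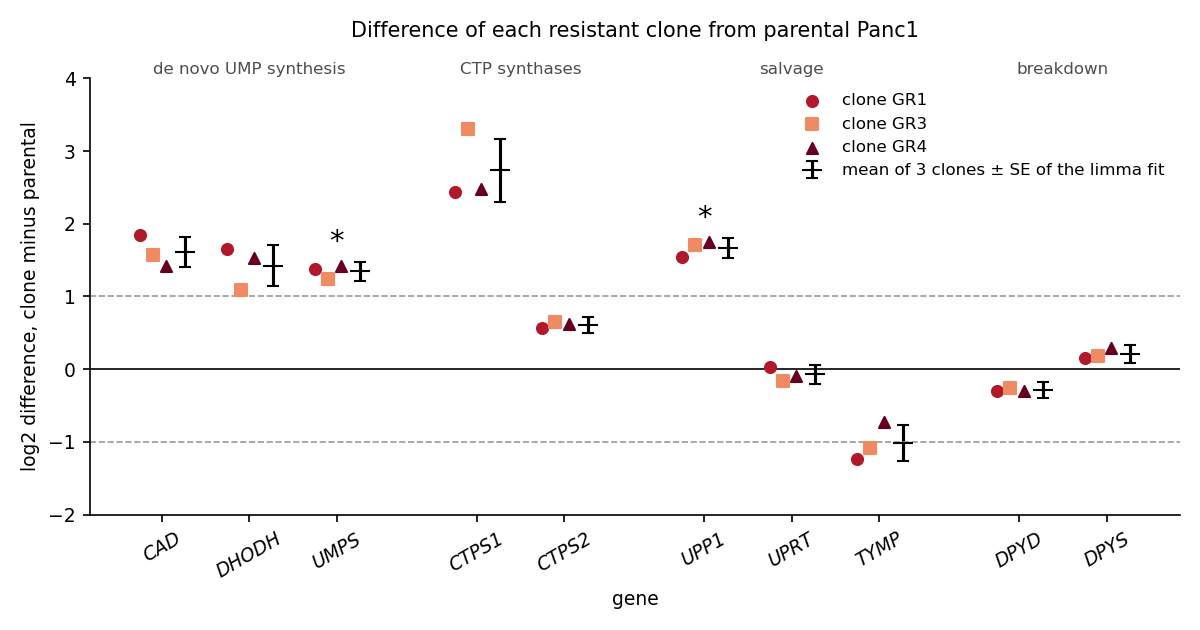
Log2 difference of each resistant clone from parental Panc1 (points) and the mean of the 3 clones ± SE of the limma fit (bars), with dashed lines at a 2-fold difference and asterisks on the genes with an adjusted p under 0.05. CAD, DHODH, UMPS, CTPS1 and UPP1 have all 3 points above the upper dashed line, and TYMP has GR1 and GR3 below the lower one.

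Among the salvage genes UPP1 rose, and UPRT and TYMP did not pass. UPP1, uridine phosphorylase, splits uridine into uracil and ribose phosphate. Log2 signals of UPP1 were 10.42, 10.59 and 10.63 in GR1, GR3 and GR4, against 8.88 in parental cells. The spot lay 1530.3, 1562 and 1622 units above the blank mean in the clones, against 396 units in the parental line. The difference was 1.67 ± 0.14, or 3.18-fold (limma adjusted p = 0.0442), with every clone at least 1.55 above the parental array. With normexp on both scanner columns the mean was 1.36 with an SE of 0.70 (adjusted p = 0.492), and with no filter on dim probes the adjusted p was 0.0518.

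UPRT carries the name of the enzyme that turns uracil into UMP in microbes. Its log2 signals were 6.84, 6.65 and 6.71 in GR1, GR3 and GR4, against 6.80 in parental cells, which lies inside the range of the clones. The difference was −0.071 ± 0.13 (limma adjusted p = 0.755), with a 95% confidence interval from −0.45 to 0.31. Its sign turned with no normalization between arrays (0.12, where the median of all genes was 0.088), with median scaling (0.075, median 0.045) and in the authors' deposited table (0.078, median 0.046). Clones and parental cells overlapped for UPRT, 1 of 10 members, and for 4451 of the 16592 tested genes.

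TYMP, thymidine phosphorylase, the enzyme known for activating fluoropyrimidine drugs, was lower in the clones. Its log2 signals were 6.83, 6.98 and 7.33 in GR1, GR3 and GR4, against 8.06 in parental cells. In scanner units above the blank mean they were 123, 128 and 161 in the clones, against 230.3 in the parental line. All 3 clones lay below the parental array, GR4 least. The difference was −1.02 ± 0.24, which is 2.02-fold lower, and it did not pass (limma adjusted p = 0.0988). It was −1.16 without GR4, and −0.62 with normexp on both scanner columns.

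Neither breakdown gene passed the test. DPYD, dihydropyrimidine dehydrogenase, the first and rate-limiting step of uracil and thymine breakdown, had log2 signals of 6.88, 6.92 and 6.89 in GR1, GR3 and GR4, against 7.19 in parental cells. The clones differed from each other by less than nearly all genes do (only 2.53% of tested genes had a smaller SD over the clones), and all lay below the parental array. The difference was −0.29 ± 0.10 (limma adjusted p = 0.179, 95% confidence interval from −0.59 to 0.016). With no normalization between arrays it was −0.086. With normexp on both scanner columns it was −0.22 with an SE of 0.35 (limma adjusted p = 0.874). There the clones were spread out, at 6.57, 7.10 and 6.36 in GR1, GR3 and GR4, against 6.90 in parental cells.

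DPYS, dihydropyrimidinase, which takes the second step of breakdown and is known mainly from liver and kidney, gave a dim spot. It lay 7.64, 7.87 and 7.16 units above the blank mean in GR1, GR3 and GR4, against 6.48 units in parental cells, where the limit for a spot above the blanks was 1.18 to 1.36 units. Its log2 signals were 2.86, 2.89 and 3.00 in the clones, against 2.71 in the parental line, a difference of 0.21 ± 0.12 (limma adjusted p = 0.338). With normexp on both scanner columns it was −0.016, so no direction is given for this gene.

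**Figure D3:**
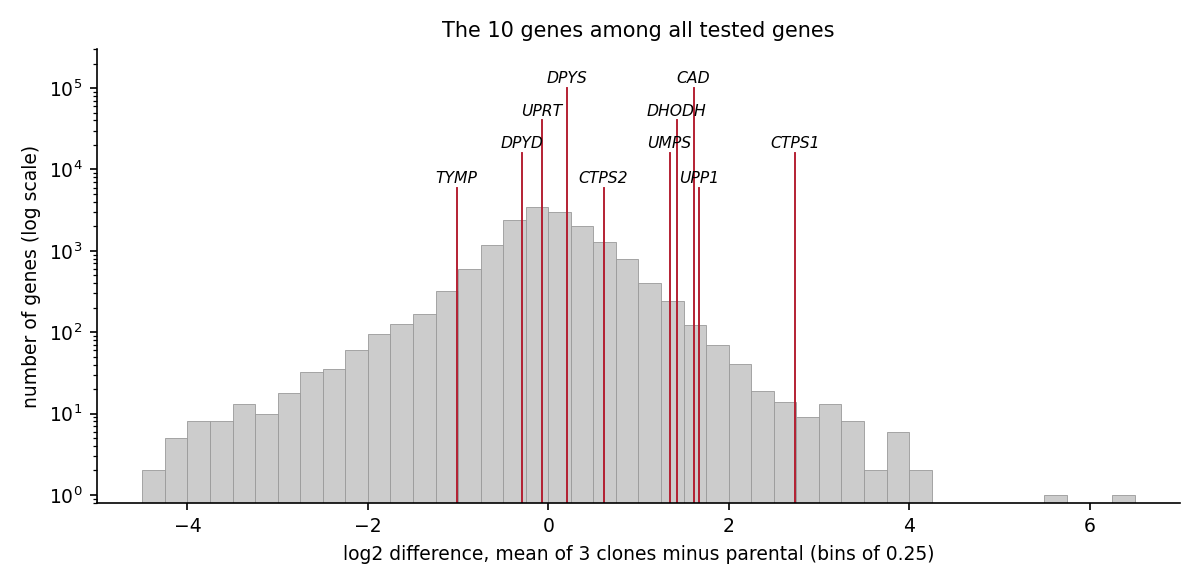
Number of tested genes (vertical axis, log scale) in each bin of 0.25 of the log2 difference between the mean of the 3 clones and parental Panc1 (horizontal axis), with red lines at the values of the 10 genes. CAD, DHODH, UMPS, UPP1 and CTPS1 lie between 1.34 and 2.74, and the others between −1.02 and 0.61.

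The clones could be set side by side, with 1 array each and no test between them. Members at least 2-fold above the parental array numbered 5 in GR1, 5 in GR3 and 5 in GR4, where 6.94%, 5.55% and 6.70% of all tested genes were. The median over the 10 genes was 0.97 in GR1, 0.86 in GR3 and 1.02 in GR4 on the log2 scale. GR3 had the highest CTPS1 and the lowest DHODH signal of the clones. GR1 had the highest CAD and the lowest TYMP signal. The order of the clones therefore differed from gene to gene: CTPS1, DHODH, TYMP and CAD had SDs over the clones of 0.49, 0.30, 0.26 and 0.21, and the other 6 genes of 0.02 to 0.11, beside a median of 0.16 over all tested genes.

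In the rest of the pyrimidine pathway few genes passed, in both directions. Of 32 other pathway genes 30 were tested; 1 rose and 1 fell by limma (4.06% of all genes passed in either direction), and the median log2 difference was 0.087. UCK2, the uridine and cytidine kinase that returns salvaged uridine to UMP, rose, with log2 signals of 9.32, 8.91 and 9.22 in GR1, GR3 and GR4, against 7.19 in parental cells (difference 1.95 ± 0.21, limma adjusted p = 0.0466). Its call was lost with normexp on both scanner columns (adjusted p = 0.149), with no normalization between arrays (0.0517) and with no filter on dim probes (0.0626). NT5C3A, a cytosolic nucleotidase that hydrolyses CMP and UMP, fell, with 9.32, 9.63 and 9.69 in the clones, against 11.58 in parental cells (−2.04 ± 0.20, limma adjusted p = 0.0444). That call was lost with normexp on both scanner columns (adjusted p = 0.104) and with no filter (0.0583). The mitochondrial pyrimidine nucleotide carrier SLC25A33 was at least 2-fold higher in all 3 clones and did not pass (1.33 ± 0.25, limma adjusted p = 0.071; 0.44 with normexp on both scanner columns).

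The largest difference of that list was that of CMPK2, a mitochondrial UMP and CMP kinase that interferon induces, with log2 signals of 4.77, 5.66 and 5.72 in GR1, GR3 and GR4, against 8.97 in parental cells (−3.59 ± 0.47, limma adjusted p = 0.0517). With normexp on both scanner columns it was at −2.24 and passed (adjusted p = 0.0487). The deaminase CDA, which inactivates gemcitabine and turns cytidine into uridine, was also at least 2-fold lower in all 3 clones (−1.82 ± 0.33, limma adjusted p = 0.0692). The largest of the rest were AGXT2 (−1.03), an aminotransferase that acts on a product of thymine breakdown, the nucleoside diphosphate kinases NME4 (0.80) and NME6 (0.57), and RRM1 (0.60), the large subunit of ribonucleotide reductase. None of these 4 passed, and with normexp on both scanner columns AGXT2 was at 0.067 and NME6 at 0.13. RRM1 was at 0.93 with no normalization between arrays. The spot of AGXT2 was dim. It lay 9.14, 10.3 and 6.30 units above the blank mean in GR1, GR3 and GR4, against 16.9 units in parental cells.

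**Figure D4:**
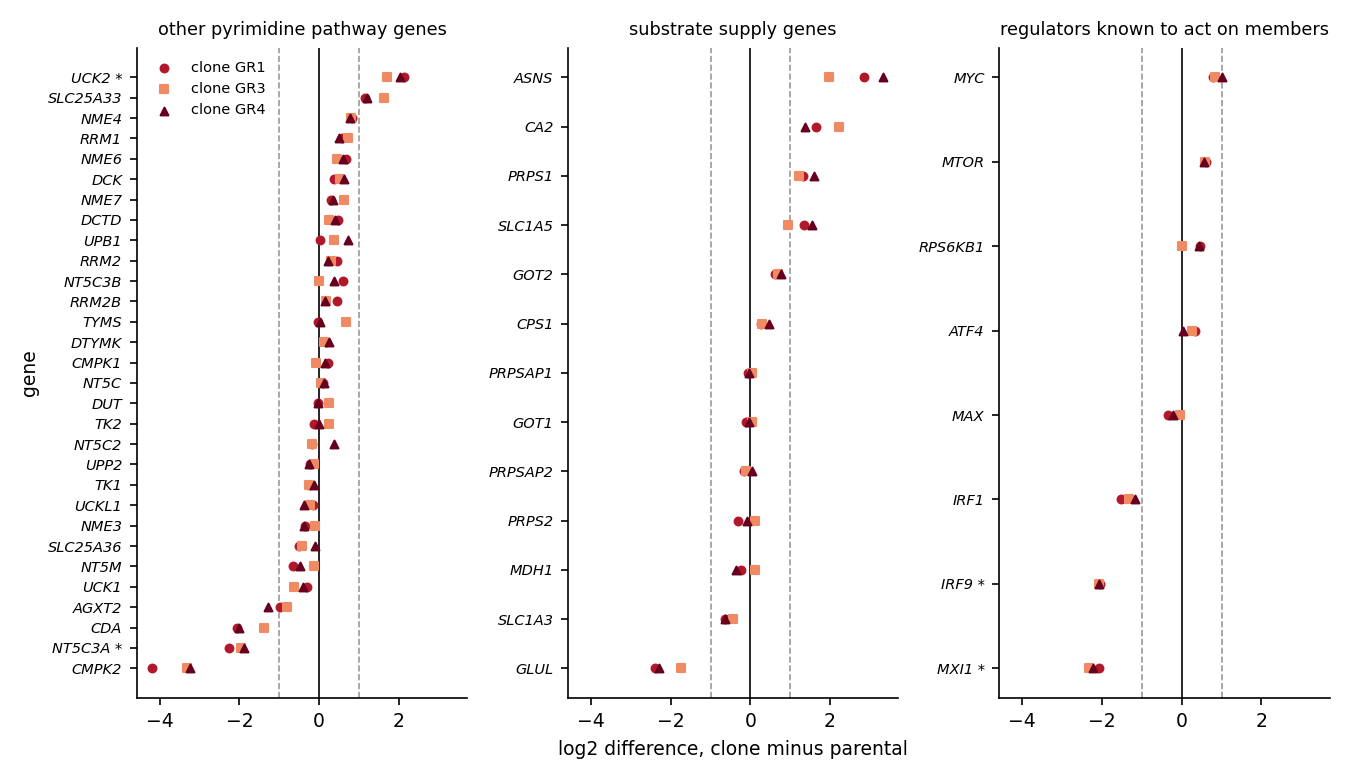
Log2 difference of each resistant clone from parental Panc1 (horizontal axis) for the tested genes of 3 related lists (other pyrimidine pathway genes, substrate supply genes, regulators), with dashed lines at a 2-fold difference and asterisks at an adjusted p under 0.05. UCK2, SLC25A33, ASNS, CA2 and PRPS1 lie right of the upper dashed line in all 3 clones, and CMPK2, NT5C3A, CDA, GLUL, MXI1, IRF9 and IRF1 left of the lower one.

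The genes that supply the substrates of UMP and CTP synthesis were read as a list of 15, of which 13 were tested. By limma 0 passed, where 4.06% of all genes did, and 7 had an unadjusted p under 0.05, 5 higher and 2 lower (16.8% and 15.1% of all genes). PRPS1, which makes the phosphoribosyl pyrophosphate that UMPS uses, had log2 signals of 9.13, 9.02 and 9.40 in GR1, GR3 and GR4, against 7.81 in parental cells (1.37 ± 0.20, limma adjusted p = 0.0543). Its paralogue PRPS2 was at −0.10 ± 0.21. ASNS, which makes asparagine from aspartate and glutamine, was higher by 2.72 ± 0.60, with GR3 again apart at 8.11 beside 8.98 in GR1 and 9.47 in GR4, against 6.13 in parental cells (limma adjusted p = 0.089).

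GLUL, which makes glutamine, was lower, with 8.53, 9.18 and 8.63 in GR1, GR3 and GR4, against 10.92 in parental cells (−2.14 ± 0.32, limma adjusted p = 0.056). CA2, a carbonic anhydrase that makes bicarbonate, was at 1.74 ± 0.39 (limma adjusted p = 0.0898; 0.70 with normexp on both scanner columns). The glutamine transporter SLC1A5 was at 1.28, the mitochondrial aspartate aminotransferase GOT2 at 0.70, the glutamate and aspartate transporter SLC1A3 at −0.58, and CPS1, the mitochondrial carbamoyl-phosphate synthetase of the urea cycle, at 0.34 (limma adjusted p from 0.0669 to 0.207). With normexp on both scanner columns CPS1 was at −0.047 and GOT2 at 0.35, and SLC1A3 was at −0.26 with no normalization between arrays. The spot of CPS1 was dim. It lay 8.87, 9.06 and 8.73 units above the blank mean in GR1, GR3 and GR4, against 6.92 units in parental cells.

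Regulators known to act on members were a list of 10, with 8 tested, of which 0 rose and 2 fell by limma (2.17% and 1.89% of all genes). MYC, which binds and activates CAD, had log2 signals of 9.07, 9.14 and 9.29 in GR1, GR3 and GR4, against 8.29 in parental cells (0.87 ± 0.14, limma adjusted p = 0.0616). The array has 2 probes for MYC, the mean of both gave 0.36, and with normexp on both scanner columns the value was 1.53 (limma adjusted p = 0.0428). MXI1, which competes with MYC for MAX, fell, with 5.82, 5.57 and 5.65 in GR1, GR3 and GR4, against 7.89 in parental cells (−2.21 ± 0.15, limma adjusted p = 0.0442). With normexp on both scanner columns MXI1 was at −1.10 and did not pass (adjusted p = 0.0728), nor did it with no normalization between arrays (0.0505) or no filter (0.0509). IRF9, a subunit of the interferon-activated factor ISGF3, fell too, with 5.84, 5.83 and 5.82 in the clones, against 7.90 in parental cells (−2.07 ± 0.10, limma adjusted p = 0.0442; −1.16 with normexp on both scanner columns, and adjusted p = 0.0507 with no filter). IRF1, another interferon-responsive factor, was at least 2-fold lower in all 3 clones (−1.34 ± 0.18, limma adjusted p = 0.0522). The kinase MTOR was at 0.59, RPS6KB1, a kinase known to phosphorylate CAD protein, at 0.30, and ATF4 was at 0.21. With normexp on both scanner columns ATF4 was at 1.24 and MTOR at 0.30, and RPS6KB1 was at 0.48 with no normalization between arrays. Whether any of these factors acts on the 10 genes here was not tested.

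The arrays were alike in detection, with 91.5% to 93.8% of gene probes above the blank-spot limit. VIM, the intermediate filament protein of mesenchymal cells, rose in the clones (limma adjusted p = 0.0442). Its log2 signals were 11.61, 11.37 and 11.31 in GR1, GR3 and GR4, against 8.59 in parental cells. VIM was listed here with the markers of a ductal carcinoma line, and the other tested markers of that list went both ways. KRT18, KRT7 and EPCAM were higher in all 3 clones, KRT19 and CDH1 were lower in all 3, and none of these passed. The tested markers of a ductal carcinoma line, KRT18, KRT19, KRT7, EPCAM, CDH1 and VIM, were above the limit on all 4 arrays, with log2 signals of 8.07 to 15.23 in the clones and 8.39 to 14.18 in parental cells. Of 5 fibroblast markers COL1A1 and COL1A2 lay near the floor, at 0.61 to 1.72 in the clones and 1.24 to 1.89 in parental cells, while DCN, LUM and PDGFRB were at 6.03 to 9.14 in the clones and 6.41 to 8.83 in parental cells. Of the leukocyte markers CD3E lay near the floor, CD68 was at 3.87 to 4.85 in the clones and 5.23 in parental cells, and CD14 was lower in the clones, with 5.05, 5.39 and 5.07 in GR1, GR3 and GR4, against 6.61 in parental cells (−1.44 ± 0.19, limma adjusted p = 0.0518). The endothelial markers VWF and CDH5 were at 2.68 to 3.37 in the clones and 3.22 to 3.48 in parental cells, and the acinar marker CTRB1 at 5.55 to 5.94 in the clones and 5.64 in parental cells. The leukocyte marker PTPRC and the acinar marker CPA1 each had 1 probe, which did not pass the filter on dim probes. For KRT8, PECAM1, PRSS1 and CELA3A no probe was matched by symbol. The part of these markers in the values of the 10 genes was not tested.

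**Figure D5:**
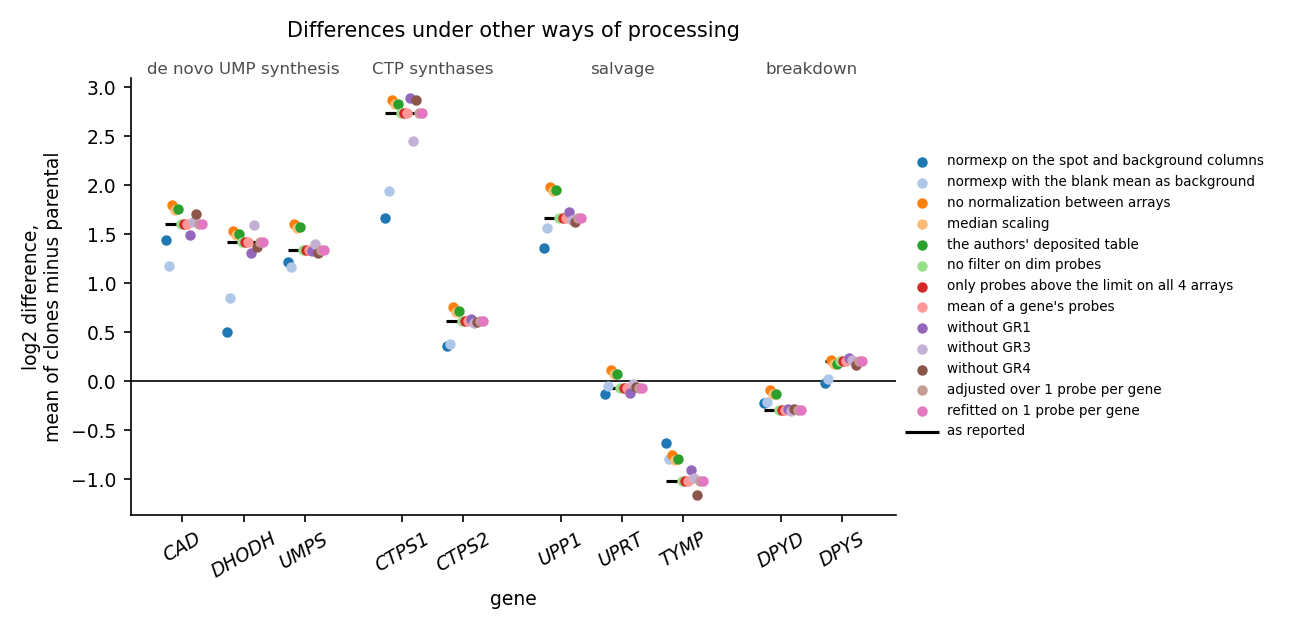
Log2 difference between the mean of the clones and parental Panc1 for the 10 genes under 13 other ways of processing (coloured points) and as reported (black bars). For CAD, UMPS and UPP1 every point lies above 1.1, DHODH ranges from 0.50 to 1.59 and CTPS1 from 1.67 to 2.89, and UPRT and DPYS have points on both sides of 0.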

How the data were processed

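Labelled RNA from 4 Panc1 samples was hybridized to Toray 3D-Gene arrays with the single dye Cy5. Per the file headers, the scanner files hold the median intensity of each spot and a background column, neither corrected. The authors deposited a further table of intensity after subtraction of the blank-spot mean; its values were rebuilt as that difference scaled to a median of 25 per array, to within 0.000206 units. Here the mean of the middle 90% of 2680 blank spots was subtracted. Then 11 of 24460 gene probes with a faulty spot were left out, and signals were quantile normalized, floored at 1.52 units and log2 transformed. Tested were probes more than 2 SD over the blanks in parental cells or in each of the 3 clones (22796 probes, 16592 genes, each read from its brightest probe). The fit was limma 3.58.1 (R 4.3.3; lmFit and eBayes, two-sided, 2 residual degrees of freedom), and p-values were adjusted by Benjamini-Hochberg across the 22796 probes, with a threshold of 0.05. The plan said all tested genes, which has 3 readings: adjustment over all probes, adjustment over 1 probe per gene, and a refit on 1 probe per gene. The last 2 were added as alternatives after seeing the data, and the choice was made with the members' values under all 3 known. The fit was tested on simulated data. The number of arrays limits the precision. Symbols were updated through RefSeq (GRCh38.p14). Genes and lists were chosen with earlier results of these data known. All members are named; from the other lists those past the test, those 2-fold apart in all 3 clones and the 4 largest of the rest are named, and PRPS2 beside PRPS1 by choice after its value was seen.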

Additional observations from a re-analysis of the deposited data

How the results depend on the processing

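No paired analysis was possible because the parental line has 1 array. As reported, 2 of 10 genes were higher by limma. Under normexp with the scanner's background column it was 0 (54 of all 16592 genes were higher by limma, against 360 as reported). It was also 0 with no filter on dim probes (0 of 17558 genes). At an unadjusted p under 0.05 these settings had 5 and 6. It was 1 with no normalization between arrays (123 of all genes) and 4 with normexp against the blank mean (1097 of all genes). In the authors' deposited table it was 4 (746 of all genes). Among probes above the limit on all 4 arrays it was 5 (1196 of 15903 genes). The share of all genes at an unadjusted p under 0.05 was taken only as reported. The count of members was 3 with median scaling (508 of all genes) and 3 with the mean of a gene's probes (431 of all genes). It was also 3 adjusted over 1 probe per gene (598 of all genes) and 3 refitted on 1 probe per gene (655 of all genes). CAD was the added gene in each of these settings. Leaving out a clone gave 0 to 0 calls (6 higher at an unadjusted p under 0.05 each time), with 1 residual degree of freedom. Genes at least 2-fold higher in all clones numbered 5, 4 with normexp against the blank mean (without DHODH) and 3 with normexp on both scanner columns (CAD, UMPS and CTPS1). Of all genes 3.66%, 0.922% and 0.790% met that rule, in the same order. Members higher in all clones by any amount numbered 7 as reported, where 35.3% of all genes were. They numbered 6 with normexp on both scanner columns, and 8 with no normalization or in the deposited table. That share of all genes was taken only as reported. Genes at least 2-fold lower numbered 0, and 0 to 1 with a clone left out (TYMP without GR4). Signs turned for UPRT (0.12 with no normalization, 0.075 with median scaling, 0.078 in the deposited table) and, with normexp on both scanner columns, for DPYS (−0.016), AGXT2 (0.067) and CPS1 (−0.047). No other of the 34 genes followed through the 13 alternatives (the members and the genes named from the 3 related lists, without PRPS2) changed sign; markers and genes of like pattern were not followed. Over all genes, 674 calls became 147 with normexp on both scanner columns (36.7% higher, against 53.4%), 208 with no normalization, 796 with median scaling (63.8% higher), 1091 in the deposited table (68.4% higher), 1100 adjusted over 1 probe per gene, 1189 refitted on 1 probe per gene, 2127 among probes above the limit on all 4 arrays, 2201 with normexp against the blank mean and 0 with no filter. No normalization between arrays moved the median of all genes to 0.088, against −0.015. Dim spots such as those of DPYS, CPS1 and AGXT2 limit what could be seen, and the cause of these differences between settings was not tested.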

Other observations

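The column headed as background in the scanner files differed between the clones for UPP1 and for DPYD. For UPP1 it stood at 74.9%, 30.1% and 71.8% of the spot's intensity in GR1, GR3 and GR4, against 55.7% on the parental array. For DPYD it stood at 71.4%, 35.9% and 81.6% in GR1, GR3 and GR4, against 54.8% on the parental array. The medians over all gene probes were 53.8%, 47.6% and 59.6% in the clones, against 51.3% in parental cells. With that column subtracted by normexp, UPP1 had log2 signals of 8.69, 10.16 and 9.04 in GR1, GR3 and GR4, against 7.93 in parental cells, while the spot intensity itself was 1539.8, 1571 and 1630.0 units in the clones, against 406 units in parental cells.

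Genes with the signal pattern closest to CTPS1 and to TYMP were looked up over the 4 arrays, as the distance between log2 signals centred on each gene's mean. These members had the largest positive and the largest negative difference. For CTPS1 the nearest of 16591 genes were CCND2, a D-type cyclin (distance 0.14), LMCD1 (0.36) and CYRIA (0.40), and 8 genes lay within 0.5. CCND2 had log2 signals of 9.23, 10.21 and 9.25 in GR1, GR3 and GR4, against 6.71 in parental cells. For TYMP the nearest were TRADD, an adaptor of TNF receptor signalling (0.096), CDKN2D, a CDK inhibitor (0.096), and TMEM190 (0.15), and 864 genes lay within 0.5. With 4 arrays such likeness is a description only.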
